A study of Homo sapiens with 15 samples.

Results

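The transcripts described here are those of ribosome biogenesis and nucleolar genes, a list of 49 gene symbols grouped by known function, chosen with earlier results of these data known. Of the 49, 48 were found among the 17214 genes present in both gene tables, and UTP14A was not analysed here. HaCaT, an established line of human skin keratinocytes, was left untreated or given Ag2S NPs (silver sulfide nanoparticles) or the same particles doped with lithium (Li-doped Ag2S NPs). Each particle was given at 160 μg/mL and at 320 μg/mL for 24 h, and each of the 5 groups had 3 RNA-seq libraries, 15 in all. The comparisons ask how each particle changed these transcripts against untreated cells, whether lithium doping altered the response at the same dose, and whether the dose altered it.

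A ribosome starts in the nucleolus, where RNA polymerase I copies the ribosomal DNA into one long precursor RNA. Small nucleolar ribonucleoproteins (snoRNPs) then guide the chemical modification of that precursor, and many processing factors cut it and fold it into the small 40S and the large 60S subunit. Most of these factors are not part of the finished ribosome. In dividing epithelial cells their transcripts are known to follow growth signals, and many of their genes are textbook targets of the transcription factor MYC.

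Expression was deposited as FPKM, fragments counted per length of transcript and scaled to the mapped fragments of the library, which is a share of each library and not an absolute amount. Sequencing depth is unknown, because no counts were available. In such bulk samples, fewer cells of a type and less RNA per cell cannot be told apart. Nothing in the labels says that the 3 libraries of a group came from separate cultures, so p-values measure only the spread between these libraries. All 12 keratinocyte markers had a mean FPKM of at least 1 in every group, while the summed FPKM of markers of fibroblasts, endothelial cells, immune cells and melanocytes was at most 29.4 in any library. The keratinocyte marker sum itself ranged from 10281 to 10682 in the untreated libraries. With the Li-doped particle it lay between 19408 and 23914 at the lower dose and between 33899 and 42390 at the higher one. At 160 μg/mL of the Li-doped particle 8 of the 12 markers were called higher and 3 lower. The immune marker sum was 25.8 to 29.4 against 11.1 to 12.1 in untreated cells. Of the 2 immune markers tested there, 1 was called higher and 1 was not called. The fibroblast marker sum was lower, at 2.36 to 4.59 against 12.99 to 16.2. The endothelial sum was lower too (0.07 to 0.35 against 3.36 to 4.01), and the melanocyte sum was higher (3.07 to 3.34 against 1.74 to 1.96). The part of these markers in the results was not tested. Replicate 15, which received Li-doped Ag2S NPs at 320 μg/mL, stood apart most from its companions. Its genes lay a median of 0.553 log2 units from the control mean, against 0.403 and 0.370 in its 2 companions. Replicate 6, of Ag2S NPs at 160 μg/mL, lay at 0.359, against 0.250 and 0.273 in its companions. The main counts of members called that rest on replicate 15 are also given without it or as a range over refits without single libraries. Values of single genes, role groups and other gene lists are mostly given with it only. As deposited, the median of all tested genes shifted between -0.26 and -0.14 on the log2 scale against untreated cells, so changes are read against that shift.

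Many members carry in their promoter the E-box CACGTG, the DNA word to which MYC and its partner MAX are known to bind. RefSeq promoter entries (GRCh38.p14, 250 bases before to 50 bases after the gene's start) matched 42 of the 49 symbols. The 7 without an entry were BOP1, DDX18, NOLC1, NOP58, RRP12, RRP1B and RRS1. UTP14A is among the 42. The word CACGTG, which reads the same on both strands, stood in 16 of the 42 member promoters (38.1%), in 7.43% of the 27305 promoters of the whole table and in 10.2% of the 9263 promoters of genes tested here. A match is a description of the letters in this window and not a measured binding site. The following stretches, 12 bases on each side of the E-box in capitals, show the word in members whose levels are described later; each reads 5′ to 3′ along the gene's own strand.
RRP9: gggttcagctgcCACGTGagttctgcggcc
MYBBP1A: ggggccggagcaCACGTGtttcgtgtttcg
WDR43: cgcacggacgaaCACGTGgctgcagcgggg
EBNA1BP2: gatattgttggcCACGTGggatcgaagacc
UTP18: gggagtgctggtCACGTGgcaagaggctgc
UTP4: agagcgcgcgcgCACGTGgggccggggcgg
UTP20: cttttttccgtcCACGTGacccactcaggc
These stretches lie at chr3:51941892-51941921 (minus strand) for RRP9, chr17:4555340-4555369 (minus) for MYBBP1A and chr2:28894658-28894687 (plus) for WDR43. They lie at chr1:43172790-43172819 (minus) for EBNA1BP2, chr17:51260445-51260474 (plus) for UTP18, chr16:69132621-69132650 (plus) for UTP4 and chr12:101280083-101280112 (plus) for UTP20. The E-box began 5 bases before the RefSeq start of RRP9, 10 before that of UTP20, 16 before that of UTP4, 89 before that of UTP18 and 237 before that of EBNA1BP2. In WDR43 and MYBBP1A it began at transcript positions 4 and 28. UTP18 holds a further E-box at transcript position 5.

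One group stood out over the whole list. Against untreated cells, Li-doped Ag2S NPs at 160 μg/mL raised 30 of the 48 members and lowered 1, UBTF (limma, adjusted p under 0.05 over all 11987 genes tested). Over all genes tested, 22.6% were called higher and 40.6% lower in the same comparison. The median log2 fold change of the members was 0.45, while that of all tested genes was -0.19. The summed FPKM of the members took between 0.401% and 0.419% of the summed FPKM of all genes present in both gene tables in each library of that group. It took between 0.302% and 0.305% in the untreated libraries and between 0.258% and 0.297% in the other 9 treated libraries, so the 3 libraries of this group lay above all others. In 32 members every library of the group was above every untreated library (25.5% of all genes tested), and in 3 members every one was below (45.5%). After each library was scaled by its median ratio, 36 members were higher and 1 lower, among them all 30 and UBTF, beside 29.7% of all genes higher and 31.1% lower. In each of the other 3 treated groups more members fell than rose, as the heat map of all members shows. The same held over all genes tested. With the Li-doped particle at 320 μg/mL 21 members fell and 3 rose (44.6% and 17.0% of all genes). With Ag2S NPs 20 fell and 2 rose at 320 μg/mL (36.2% and 16.2%), and 16 fell and 1 rose at 160 μg/mL (23.8% and 11.5%).

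**Figure D1:**
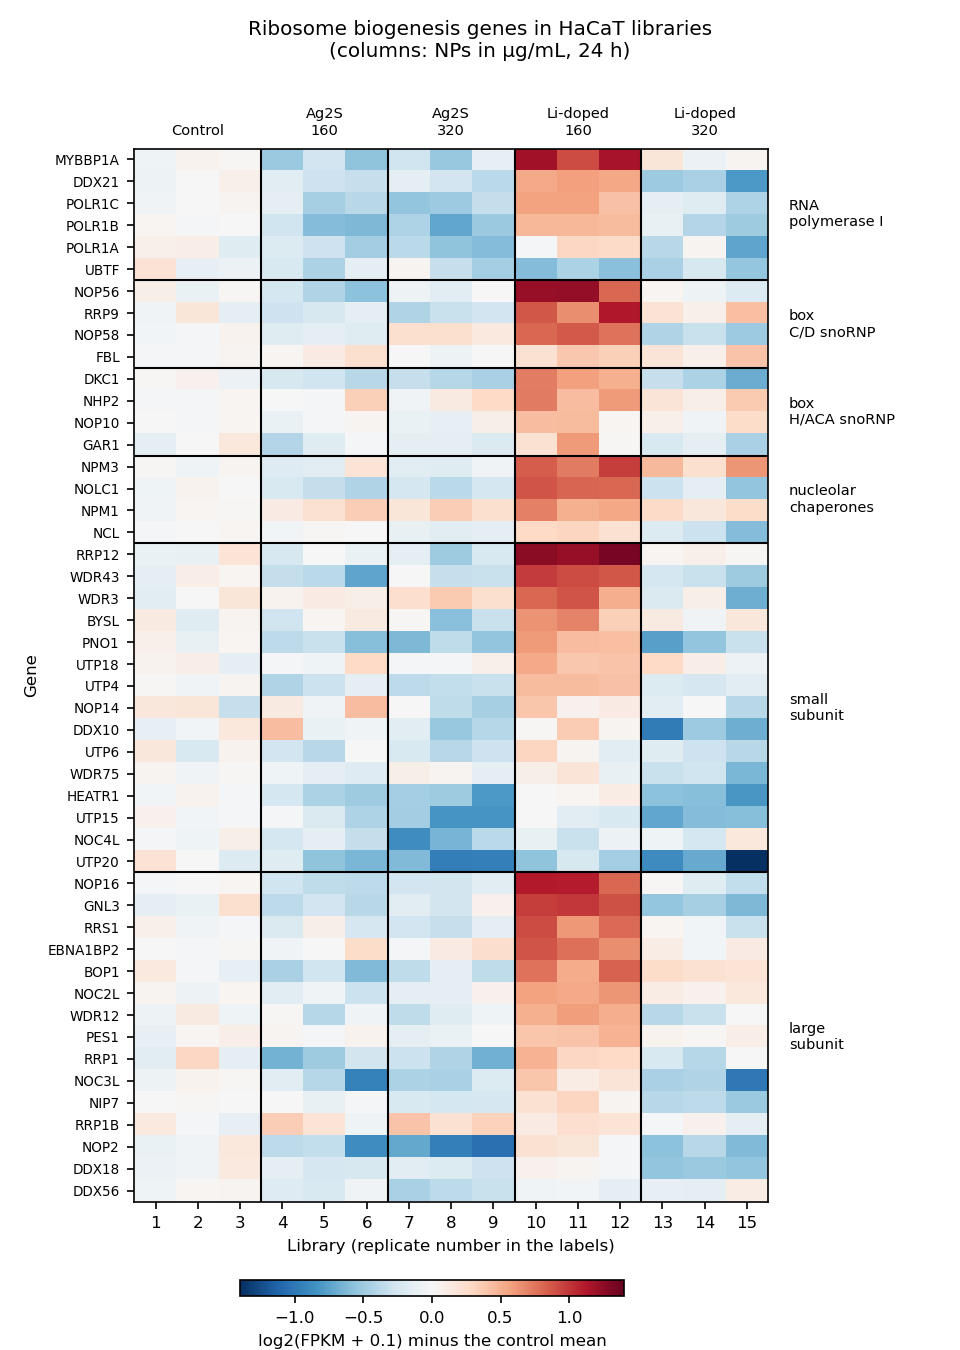
Heat map of log2(FPKM + 0.1) minus the untreated mean for the 48 members (rows, by role) in the 15 libraries (columns, by group, numbered as the replicates). The 3 libraries of Li-doped Ag2S NPs at 160 μg/mL are red in most rows, with 30 of 48 members called higher (22.6% of all genes). In the other 3 treated groups between 16 and 21 members were called lower and at most 3 higher. Over all genes, 23.8% to 44.6% were called lower and 11.5% to 17.0% higher in those groups.

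In the RNA polymerase I group of 6 members, 4 rose with Li-doped Ag2S NPs at 160 μg/mL, 1 fell and 1 was not called. MYBBP1A, a nucleolar MYB-binding protein encoded at chr17:4538897-4555631 (minus strand; gene coordinates here and later are GENCODE 29, GRCh38), had FPKM of 15.96, 17.2 and 16.8 in untreated cells and 37.6, 31.5 and 37.3 in this group. Its log2 fold change was 1.08 ± 0.10 (SE; limma adjusted p = 5.98e-06), and the groups did not overlap. At this dose the undoped particle lowered it to 12.2 ± 1.42 (SD, n = 3), a log2 change of -0.45 (adjusted p = 0.00824). POLR1B, the second largest subunit of the polymerase, rose from 9.38 ± 0.197 to 12.9 ± 0.133, and POLR1C, a subunit shared with RNA polymerase III, from 18.7 ± 0.58 to 26.8 ± 1.58. DDX21, a nucleolar RNA helicase, rose from 32.2 ± 1.68 to 47.1 ± 0.727. POLR1A, the largest subunit, was 7.17 ± 0.732 in untreated cells and 8.17 ± 0.953 in this group, and did not pass the test (log2 change 0.18, adjusted p = 0.268).

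UBTF, the upstream binding factor that opens ribosomal DNA for transcription, was the exception to the rise. Its FPKM was 10.4, 8.25 and 8.45 in untreated cells and 5.87, 6.59 and 5.93 with Li-doped Ag2S NPs at 160 μg/mL, a log2 change of -0.54 ± 0.13 (adjusted p = 0.00416). All 3 treated libraries were below all 3 untreated ones, and the call held in every alternative run. At 320 μg/mL the Li-doped particle left it at 6.78 ± 0.813, a log2 change of -0.40 (adjusted p = 0.0431), but this call was lost in 8 alternatives: without a filter, after median ratio scaling, and without any one untreated library or replicate 8, 13 or 15. With Ag2S NPs UBTF did not pass the test at either dose (log2 changes of -0.26 at 160 μg/mL and -0.25 at 320 μg/mL): the libraries at 160 μg/mL, at most 8.21, lay just below the lowest untreated value of 8.25, and those at 320 μg/mL overlapped the untreated ones.

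Each of the 4 box C/D snoRNP members, whose particles guide 2′-O-methylation of ribosomal RNA, rose with Li-doped Ag2S NPs at 160 μg/mL. NOP56, a core protein (chr20:2652145-2658393, plus strand), had FPKM of 76.0, 67.1 and 72.5 in untreated cells and 167, 168 and 125 in this group. The third library of the group was the lowest, yet it was above all 12 libraries of the other groups. The log2 change was 1.08 ± 0.12 (adjusted p = 1.72e-05). NOP58, its partner in the particle, rose from 28.2 ± 0.857 to 49.5 ± 1.87 (log2 change 0.81 ± 0.07, adjusted p = 1.6e-06). RRP9, a protein of the U3 snoRNP, rose from 9.99 ± 1.11 to 18.6 ± 3.06, with values between 15.7 and 21.8. FBL, the methyltransferase fibrillarin, moved less, from 87.8 ± 1.78 to 109 ± 6.24 (log2 change 0.31, adjusted p = 0.00293).

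In the box H/ACA snoRNP, which guides pseudouridylation, 3 of 4 members rose. DKC1, the pseudouridine synthase dyskerin (chrX:154762742-154777689, plus strand), had FPKM of 28.7, 29.6 and 26.9 in untreated cells and 46.7, 42.2 and 39.9 in this group (log2 change 0.59 ± 0.08, adjusted p = 9.76e-05). The core proteins NHP2 and NOP10 had log2 changes of 0.59 and 0.30. The NOP10 call (adjusted p = 0.0227) was the only one of the 30 that was lost in any alternative. The core protein GAR1 did not pass the test, with 9.52 ± 0.943 in untreated cells and 11.7 ± 2.46 in this group.

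All 4 nucleolar chaperones rose as well. NPM1, nucleophosmin, was the most abundant member and had FPKM of 467, 491 and 489 in untreated cells and 784, 683 and 700 with Li-doped Ag2S NPs at 160 μg/mL (log2 change 0.58 ± 0.08, adjusted p = 7.29e-05). NPM1 was also the only member called higher in all 4 treated groups, with log2 changes between 0.23 and 0.24 in the other 3. At 160 μg/mL of Ag2S NPs that call was lost in 7 alternatives. With the Li-doped particle at 320 μg/mL it was lost with equal summed FPKM. GENCODE 29 names 45 pseudogenes of NPM1, so its level is uncertain where reads could be shared. NOLC1, the snoRNP chaperone Nopp140, rose from 25 ± 0.951 to 44.6 ± 1.32 (log2 change 0.83, adjusted p = 3.9e-06), and NPM3, of the nucleoplasmin family, from 24.9 ± 0.858 to 45 ± 3.78. NCL, nucleolin, gained least, from 154 ± 2.06 to 185 ± 5.67 (log2 change 0.27, adjusted p = 0.00143).

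**Figure D2:**
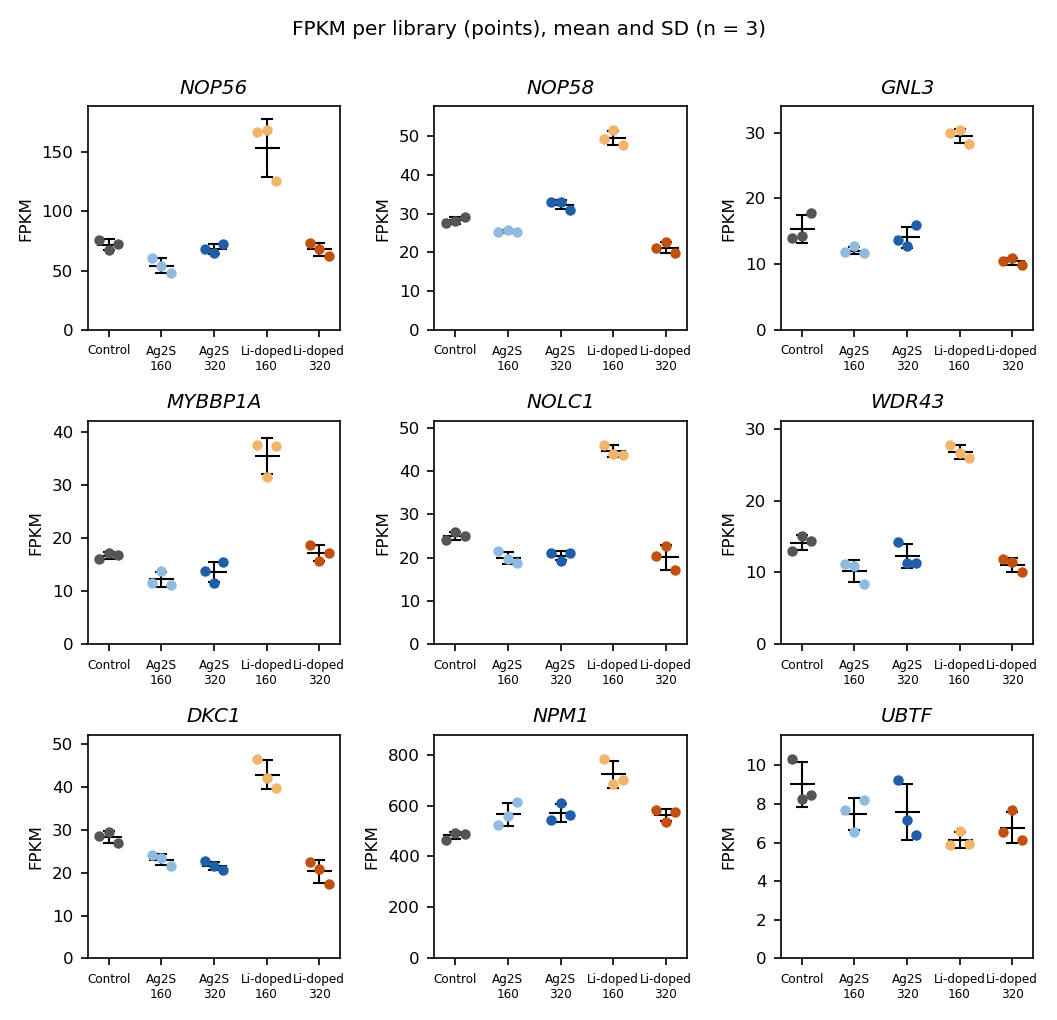
FPKM per library for 9 members in the 5 groups (points), with the mean and SD over 3 libraries (horizontal bars and whiskers); all axes start at 0. In 8 of the 9 the Li-doped group at 160 μg/mL is the highest, and in UBTF it lies below the untreated libraries.

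In the small subunit group, whose proteins join the precursor RNA early as the processome or act later on the pre-40S particle, 7 of the 15 tested members rose with Li-doped Ag2S NPs at 160 μg/mL and none fell (limma; 1 was lower at an unadjusted p under 0.05). RRP12, a pre-40S factor (chr10:97356358-97426076, minus strand), had the largest change of all members: FPKM of 7.26, 7.25 and 8.91 in untreated cells and 18.8, 18.3 and 19.6 in this group, a 2.41-fold difference (log2 change 1.27 ± 0.11, adjusted p = 3.07e-06). WDR43, of the UTP-A complex (chr2:28894643-28948222, plus strand), had 12.96, 15.03 and 14.4 in untreated cells and 27.8, 26.6 and 25.9 in this group (log2 change 0.92 ± 0.12, adjusted p = 4.57e-05). Neither gene overlapped between the groups. The other risers were WDR3 and UTP18 of the UTP-B complex (0.73 and 0.44), BYSL (0.55), the pre-40S factor PNO1 (0.48) and UTP4 of UTP-A (0.44).

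Of the UTP-A complex, UTP4 and WDR43 passed the test, while UTP15, WDR75 and HEATR1 had log2 changes of -0.12, 0.05 and 0.04 with adjusted p of 0.448, 0.64 and 0.712. HEATR1 had FPKM of 15.8, 16.8 and 16.1 in untreated cells and 16.2, 16.5 and 17.4 with Li-doped Ag2S NPs at 160 μg/mL, and these ranges overlapped. UTP20, a large processome protein whose promoter stretch is printed above, was lower in every library of this group but did not pass the test (adjusted p = 0.0665). Its FPKM was 2.98, 3.79 and 3.16, against 5.13, 4.41 and 3.87 in untreated cells. UTP6, NOP14, NOC4L and DDX10 were not called either, with log2 changes between -0.16 and 0.19.

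Of the 15 large subunit members, which assemble the pre-60S particle, 8 rose and none fell. NOP16, a pre-60S factor, had FPKM of 14.2, 14.4 and 14.7 in untreated cells and 31.4, 31.2 and 25.3 with Li-doped Ag2S NPs at 160 μg/mL (log2 change 1.01 ± 0.10, adjusted p = 5.73e-06). GNL3, nucleostemin (chr3:52681156-52694492, plus strand), had 13.9, 14.3 and 17.9 and then 29.9, 30.4 and 28.3 (log2 change 0.95 ± 0.10, adjusted p = 1.53e-05). In both genes all treated libraries were above all untreated ones. The PeBoW complex, formed by BOP1, PES1 and WDR12, rose in all of its members, with log2 changes of 0.70, 0.43 and 0.53. EBNA1BP2 (0.77), RRS1, which helps to bring in the 5S RNA (0.77), and NOC2L (0.57) completed the group. The 7 that were not called were NOC3L, NOP2, RRP1, RRP1B, NIP7, DDX18 and DDX56, with log2 changes between -0.07 and 0.35.

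The higher dose of the same particle gave lower levels in most members. Between 160 and 320 μg/mL of Li-doped Ag2S NPs, 41 of the 48 members fell and none rose (limma on all 15 libraries; 0 rose at an unadjusted p under 0.05). Of all 11952 genes tested, 23.3% fell and 19.6% rose. The members' median log2 difference was -0.62, and that of all genes was -0.06. In 42 members every library at 320 μg/mL was below every library at 160 μg/mL (27.5% of all genes), and in none above (22.0%). Without replicate 15, 38 members fell and none rose.

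GNL3 had the largest dose difference, from 29.9, 30.4 and 28.3 FPKM at 160 μg/mL to 10.5, 10.98 and 9.84 at 320 μg/mL (log2 difference -1.49 ± 0.11, adjusted p = 3.93e-08). NOP58 went from 49.3, 51.4 and 47.7 to 21.1, 22.7 and 19.8 (-1.22 ± 0.07, adjusted p = 2.75e-09). All values at the higher dose were also below the untreated ones in both genes. NOLC1 and DDX21 differed by -1.16 and -1.14, and DKC1 by -1.08 (adjusted p = 1.81e-07, 1.73e-07 and 3.48e-07). The 7 members that were not called were UBTF, FBL, NOP10, NOP14, NOC4L, RRP1B and DDX56, with differences between -0.36 and 0.14. All 4 chaperones fell, as did 3 of 4 members of each snoRNP, 5 of 6 of the RNA polymerase I group, 13 of 15 of the small subunit group and 13 of 15 of the large subunit group.

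Few members passed the same test with the undoped particle. Between 160 and 320 μg/mL of Ag2S NPs 1 member rose and 1 fell (4.84% and 7.68% of all genes). In 6 members the libraries of the higher dose all lay above those of the lower dose, and in 7 all below (12.7% and 19.3% of all genes). NOP58 rose from 25.4 ± 0.32 to 32.2 ± 1.11 (log2 difference 0.35 ± 0.07, adjusted p = 0.00436). UTP15, of UTP-A, fell from 6.17 ± 0.88 to 4.36 ± 0.624 (-0.49 ± 0.14, adjusted p = 0.0274), and this call was lost without replicate 4, 5 or 8.

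**Figure D3:**
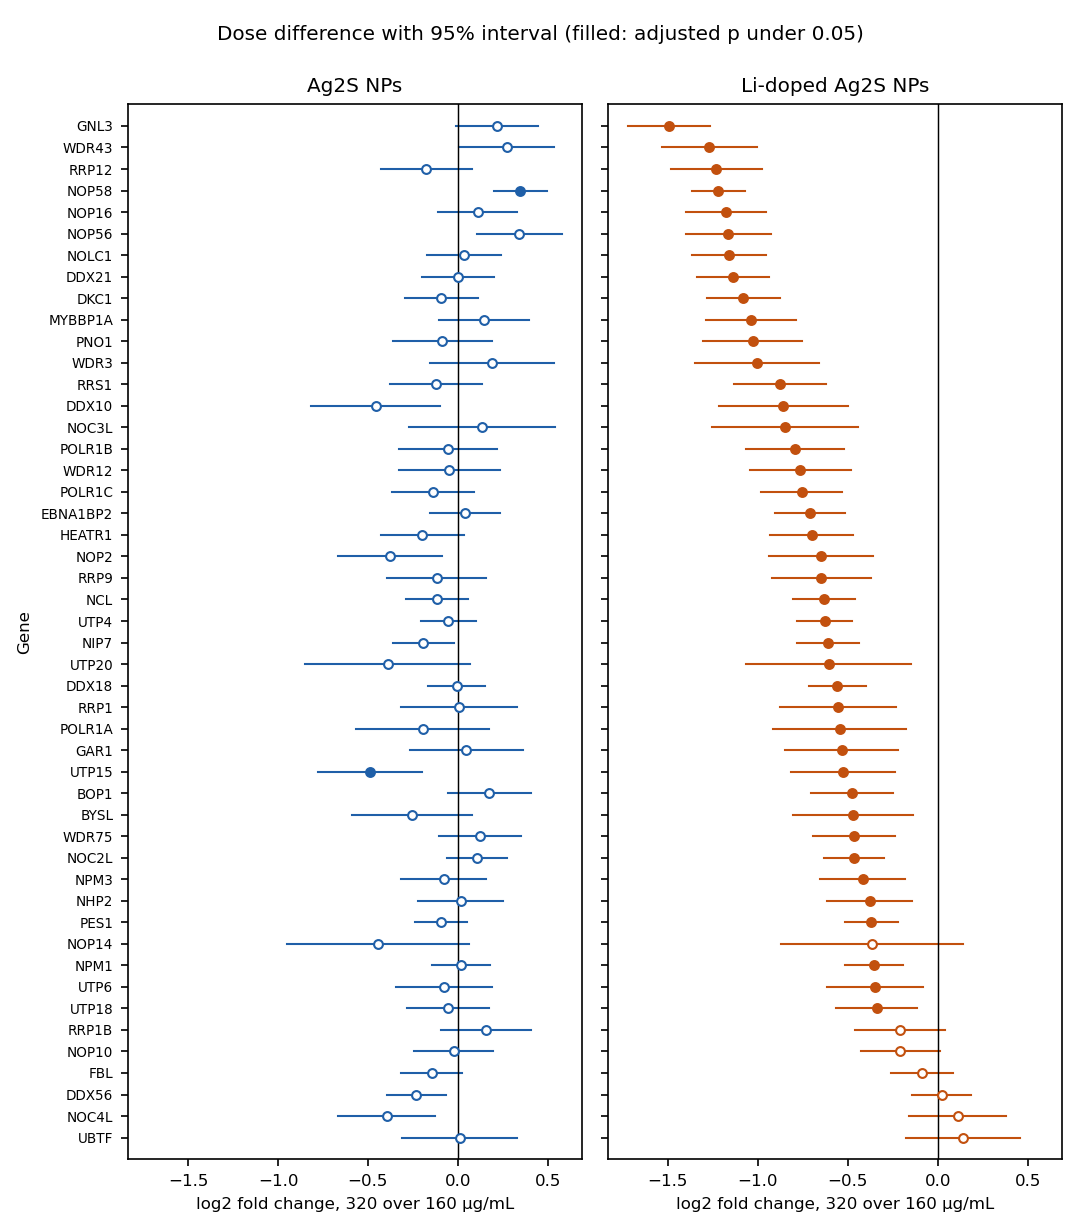
Log2 fold change of 320 over 160 μg/mL for the 48 members with its 95% interval, for Ag2S NPs (left) and Li-doped Ag2S NPs (right); filled points passed an adjusted p of 0.05. With the undoped particle 2 members passed, and with the Li-doped particle 41 passed, all to the left of 0.

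The effect of doping differed between the doses in most members, by the test of the interaction term itself. In 31 of 48 members the Li-doped minus undoped difference was lower at 320 than at 160 μg/mL, and in 1, NOC4L, it was higher (19.5% and 20.2% of all genes). The interaction was -1.71 ± 0.15 for GNL3 (adjusted p = 5.03e-07), -1.57 ± 0.10 for NOP58 (1.27e-08), -1.54 ± 0.17 for WDR43 (6.15e-06) and -1.50 ± 0.16 for NOP56 (2.68e-06), all on the log2 scale. NOC4L, a processome protein, had 0.51 ± 0.18 (adjusted p = 0.0353), a call that was lost with equal summed FPKM and without any one of replicates 4, 5, 7, 8, 11, 13 and 15. The large subunit group held 12 of the 31 and the small subunit group 7.

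The particles were then compared at 160 μg/mL. Against Ag2S NPs at this dose, 37 of 48 members were higher with the Li-doped particle and none was lower (limma; 0 lower at an unadjusted p under 0.05), while 21.4% of all genes were higher and 29.0% lower. In 36 members all Li-doped libraries lay above all undoped ones, and in none below (23.8% and 31.2% of all genes). The members' median log2 difference was 0.65, and that of all genes was -0.05. MYBBP1A, at 35.4 ± 3.4 against 12.2 ± 1.42, differed by 1.53 ± 0.10 (adjusted p = 8.51e-07). NOP56, at 154 ± 24.4 against 54.1 ± 6.19, differed by 1.495 ± 0.12 (adjusted p = 2.83e-06). NOLC1 and NOP16 differed by 1.15 and 1.34 (adjusted p = 6.53e-07 and 1.28e-06). The 11 not called were UBTF, FBL, UTP15, WDR75, UTP6, UTP20, NOP14, NOC4L, DDX10, RRP1B and DDX56.

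At 320 μg/mL the particles differed in fewer members and in both directions: 8 were higher with doping and 7 lower (10.1% and 16.1% of all genes). The libraries of the particles did not overlap in 11 members that were higher and 9 that were lower (15.7% and 25.6% of all genes). NPM3 was 33.8 ± 4.55 with the Li-doped and 22.8 ± 1.08 with the undoped particle (log2 difference 0.56 ± 0.10, adjusted p = 0.00236), and BOP1 was 24 ± 0.483 and 17 ± 1.61 (0.50 ± 0.09, adjusted p = 0.00361). RRP9 and NOC4L, higher by 0.57 and 0.58, did not overlap between the particles either. NOP58 was 21.2 ± 1.46 with the Li-doped and 32.2 ± 1.11 with the undoped particle (-0.60 ± 0.08, adjusted p = 0.000334). Of the 15 calls, those of RRP9, NPM3, NOC4L, BOP1 and NOP58 held in every alternative. Without replicate 7 only 1 member was lower, without replicate 8 or 15 it was 3, and without replicate 9 or any one untreated library it was 4. Without replicate 8 or 13, 5 members were higher.

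Against untreated cells, Ag2S NPs at 320 μg/mL lowered 20 members and raised 2, NPM1 and RRP1B (36.2% and 16.2% of all 11903 genes). In 27 members all treated libraries lay below all untreated ones, and in 4 above (45.5% and 20.0% of all genes). The members' median log2 change was -0.26 and that of all genes -0.19. NOP2, an rRNA methyltransferase, fell most, from 20.7, 21.5 and 24.5 FPKM to 13.5, 11.4 and 10.7 (-0.90 ± 0.11, adjusted p = 5.5e-05). UTP20 fell by 0.85, UTP15 by 0.71, NOC4L by 0.63 and HEATR1 by 0.60 on the log2 scale. After median ratio scaling 8 falls remained, in POLR1B, POLR1C, DKC1, UTP15, HEATR1, UTP20, NOC4L and NOP2, and 5 members were higher (22.5% of all genes lower and 23.1% higher). Without untreated replicate 2 or either of replicates 8 and 9, 12 were lower, and without untreated replicate 1 it was 13. The RRP1B call was lost with equal summed FPKM and without untreated replicate 2 or 3 or replicate 7, 9 or 13, which left NPM1 as the 1 member called higher.

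Li-doped Ag2S NPs at 320 μg/mL lowered 21 members and raised 3, NPM1, NPM3 and FBL (44.6% and 17.0% of all genes). The FBL call was lost in 6 alternatives: with equal summed FPKM, with only the groups compared, and without any one untreated library or replicate 15. The NPM1 call was lost with equal summed FPKM. Of the 3, only the NPM3 call held in every alternative. Without overlap, 21 members were below the untreated libraries and 6 above (48.6% and 18.5% of all genes). The members' median log2 change, -0.24, lay next to that of all genes, -0.26. UTP20 fell by 1.03, the helicase DDX10 by 0.72, HEATR1 by 0.66, DDX21 by 0.59 and DDX18 by 0.54 on the log2 scale. NPM3 rose by 0.43 ± 0.10 (adjusted p = 0.00261), and its 3 libraries (34.1, 29.1 and 38.2) were above all untreated ones. After median ratio scaling 12 members were lower and 11 higher (26.9% and 27.3% of all genes), and UTP4 changed sign (from -0.19 to 0.05). Without replicate 15, 18 were lower and 2 higher.

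Ag2S NPs at 160 μg/mL lowered 16 members and raised 1, NPM1 (23.8% and 11.5% of all genes), with a median log2 change of -0.21 against -0.14 for all genes. Without overlap, 24 members were below the untreated libraries and 1 above (36.3% and 15.9% of all genes). NOP2, POLR1B and WDR43 fell by 0.53, 0.50 and 0.48 on the log2 scale. After median ratio scaling 5 falls remained, in POLR1B, MYBBP1A, WDR43, HEATR1 and NOP2, and 2 members were higher (14% of all genes lower and 16% higher). Without untreated replicate 3, 8 members were lower, and without untreated replicate 1 it was 9.

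Other genes of the same pathway, taken from lists by function, moved in both directions with Li-doped Ag2S NPs at 160 μg/mL. Of 12 other RNA polymerase I genes 4 rose and 3 fell. Of 36 other small subunit factors 14 rose and 8 fell, and of 37 other large subunit factors 9 rose and 10 fell. Of all genes tested, 22.6% rose and 40.6% fell as deposited. After median ratio scaling 7 rose and 1 fell, 17 rose and 4 fell, and 15 rose and 5 fell in these lists (29.7% of all genes rose and 31.1% fell). The median log2 changes of the small and large subunit lists were 0.14 and 0.05 as deposited and 0.31 and 0.21 after that scaling, and the large subunit median was -0.03 with equal summed FPKM. NOL6, a processome protein, was among the small subunit factors that rose (0.55), and DDX52, an RNA helicase, was among those that fell (-0.88). In the large subunit list NLE1 rose by 0.94 on the log2 scale and REXO4 fell by 0.52. TCOF1, the treacle protein of rDNA transcription, fell in all 4 treated groups, with log2 changes between -0.63 and -0.37. Of 9 snoRNP assembly factors 3 rose and 1 fell (6 and 1 after scaling), and of 14 RNA exosome genes 5 rose and 6 fell (5 and 4). Between 160 and 320 μg/mL of the Li-doped particle, 22 of the 36 small subunit factors and 18 of the 37 large subunit factors fell (23.3% of all genes).

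Cytosolic ribosomal proteins, the parts that the pathway builds in, followed another order. Of 79 tested, 32 rose with Li-doped Ag2S NPs at 160 μg/mL, 51 at 320 μg/mL, 7 with Ag2S NPs at 320 μg/mL and 1 at 160 μg/mL, and none fell (2 were lower at 160 μg/mL of the Li-doped particle with equal summed FPKM). Over all genes tested, 22.6%, 17.0%, 16.2% and 11.5% rose in the same comparisons. After median ratio scaling the counts were 53, 71, 15 and 8, beside 29.7%, 27.3%, 23.1% and 16% of all genes. RPL10 had log2 changes of 0.54 and 0.52 with the Li-doped particle at 160 and 320 μg/mL. RPL5 had 0.53 and 0.17. Of 20 mitosis genes all 20 fell with the Li-doped particle at both doses and with Ag2S NPs at 320 μg/mL. With Ag2S NPs at 160 μg/mL 18 fell. Of all genes, 40.6% and 44.6% fell with the Li-doped particle at 160 and 320 μg/mL, and 23.8% and 36.2% with Ag2S NPs. At 160 μg/mL of the Li-doped particle, 30 of 48 ribosome biogenesis members rose (22.6% of all genes) while all 20 mitosis genes fell (40.6%).

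MYC, a transcription factor of cell growth, was highest in the group in which most members rose. Its FPKM was 41.1, 39.8 and 36.3 in untreated cells and 125, 106 and 107 with Li-doped Ag2S NPs at 160 μg/mL, with no overlap (log2 change 1.53 ± 0.10, adjusted p = 2.48e-07). At 320 μg/mL the Li-doped particle left 36.4, 32.1 and 31.5, a dose difference of -1.75 ± 0.10 (adjusted p = 2.5e-09). Against untreated cells MYC was lower with Ag2S NPs at 160 μg/mL (-0.60 ± 0.10, adjusted p = 0.00121) and at 320 μg/mL (-0.43 ± 0.09, adjusted p = 0.00194). With the Li-doped particle at 320 μg/mL it was lower by 0.23 on the log2 scale (adjusted p = 0.0403), a call that was lost after median ratio scaling, where the change was 0.01.

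MXD4, which pairs with MAX and opposes MYC, ran the other way between the doses of the Li-doped particle. In every treated group, though, its libraries lay below the untreated ones (at most 64.7 against at least 74.3 FPKM). This includes the groups in which MYC was lower. With the Li-doped particle MXD4 fell from 76.8 ± 2.3 to 28 ± 2.28 FPKM at 160 μg/mL (log2 change -1.45 ± 0.07, adjusted p = 3.9e-08). It was higher at 320 than at 160 μg/mL by 1.05 (adjusted p = 7.74e-08). MXD1, of the same family, fell in all 4 treated groups, with log2 changes of -1.55 and -1.69 for Ag2S NPs at 160 and 320 μg/mL and -0.64 and -1.53 for the Li-doped particle. MXD3, also of this family, had FPKM of 8.86, 10.9 and 9.97 in untreated cells and 3.8, 3.26 and 1.15 with the Li-doped particle at 160 μg/mL. Its libraries in the other treated groups also lay below the untreated ones. MAX itself had a log2 change of -0.09 at 160 μg/mL of the Li-doped particle (adjusted p = 0.33). Of the 10 MYC network genes tested, 2 rose (MYC and MYCL) and 4 fell in that group (22.6% and 40.6% of all genes).

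**Figure D4:**
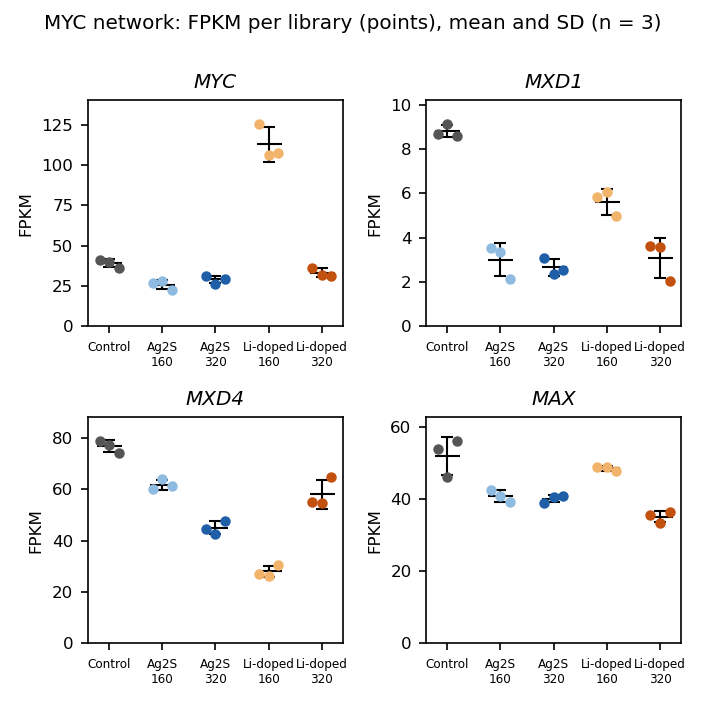
FPKM per library for MYC, MXD1, MXD4 and MAX in the 5 groups (points), with the mean and SD over 3 libraries (horizontal bars and whiskers); all axes start at 0. MYC lies above 100 FPKM in the 3 libraries of Li-doped Ag2S NPs at 160 μg/mL and below 42 in the other 12, and MXD4 is lowest in those same 3.

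Members rose with and without the E-box. Of all genes tested, 22.6% rose and 40.6% fell with Li-doped Ag2S NPs at 160 μg/mL. Of the 15 tested members with CACGTG in the promoter window 11 rose there and none fell, with a median log2 change of 0.44. Of the 26 with a promoter entry and no such word 14 rose and 1 fell, with a median of 0.41. Between 160 and 320 μg/mL of that particle 12 of the 15 and 23 of the 26 fell (23.3% of all genes). The difference between the sets was not tested.

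Some members are host genes of small nucleolar RNAs. POLR1C, NOP56, NOP58, DKC1, NCL, WDR43 and GNL3 hold small nucleolar RNA genes within their bounds on the same strand (GENCODE 29), 6 of them in GNL3 and 5 in NOP56. All 7 rose with Li-doped Ag2S NPs at 160 μg/mL, and 23 of the 41 other members rose (22.6% of all genes). The median log2 changes were 0.81 and 0.43. All 7 fell between 160 and 320 μg/mL of that particle, as did 34 of the 41 others (23.3% of all genes). The medians were -1.16 and -0.56. The difference between these sets was not tested.

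In untreated cells the levels of the members, which FPKM gives per length, spanned from NPM1 at 482 ± 13.7 FPKM to NOP14 at 1.39 ± 0.274. Below NPM1 came NCL at 154 ± 2.06, NOP10 at 141 ± 2.5, FBL at 87.8 ± 1.78 and NOP56 at 71.9 ± 4.46, and none of these neighbours overlapped. NOP14, a processome protein, was not called in any comparison. The library kit did not mark strand, so reads of overlapping genes on opposite strands cannot be told apart: for example, MYBBP1A shares exon sequence with SPNS2, GNL3 with GLT8D1, NOP16 with ARL10 and HIGD2A, UBTF with AC003102.1 and AC004596.1, and RRP12 with AL355490.2. On the same strand NOP2 overlaps AC006064.6, HEATR1 overlaps AL359921.1 and RRS1 overlaps AC009879.2.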

How the data were processed

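Total RNA of 15 HaCaT libraries (5 groups of 3) was sequenced as 150-base paired reads from TruSeq RNA libraries, and per the submitters' processing notes and the study's methods the authors used TopHat, Cufflinks 2.1.1 and Cuffdiff with multi-read and fragment bias correction. The deposited gene tables, 1 for each dose with the same 3 untreated libraries, hold FPKM as the authors computed them. The genome build is not given in the sources used here. Fold change and p-value columns, transcript tables and 2-group tables of the authors were not used. Depth per library is unknown, so precision rests on the 3 libraries per group.

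The tests covered every gene whose mean FPKM reached 1 in the fit, on log2(FPKM + 0.1) with limma 3.58.1 (trend, moderated, two-sided) in R 4.3.3, with Benjamini-Hochberg adjustment over all genes tested and a threshold of 0.05. Fold changes on that scale understate those of low genes. Comparisons within a dose used its 9 libraries, and dose and interaction terms all 15. The code was tested on simulated data. Alternatives were pseudocounts of 0.01 and 1, no filter or a mean of at least 5, median ratio scaling, equal summed FPKM, robust variance, weights per library, other sample sets and leaving out each library.

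The members and the other lists were chosen with earlier results of these data known. Members named with full values were, by rule, the 3 with the smallest p in each role at 320 μg/mL with either particle, those called against the majority, up to 5 per direction with the smallest p for doping and dose, and the 5 highest untreated levels. In other lists up to 4 genes with the smallest p at 320 μg/mL were eligible, and all of the MYC network. BYSL, EBNA1BP2, NOC2L, NOC3L, NOP14, PES1, PNO1, RRP1, RRP12, RRS1, UTP18, UTP20, UTP6, WDR12, WDR3 and WDR43 were named outside that rule, after their values were seen.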

Additional observations from a re-analysis of the deposited data

Results flagged for a closer look

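The effect of lithium doping differed between the 2 doses by the test of the difference itself, the interaction term over all 15 libraries (limma). At 160 μg/mL 37 members were higher and 0 lower with the Li-doped than with the undoped particle (21.4% and 29.0% of all genes). At 320 μg/mL 8 were higher and 7 lower (10.1% and 16.1% of all genes). The interaction passed in 32 members, 31 lower and 1 higher (19.5% and 20.2% of all genes). On the log2 scale it was -1.71 for GNL3, -1.57 for NOP58, -1.54 for WDR43, -1.50 for NOP56, -1.19 for NOLC1 and 0.51 for NOC4L, whose call was lost with equal summed FPKM and when any one of 7 libraries was left out.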

How the results depend on the processing

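The number of members that rose with Li-doped Ag2S NPs at 160 μg/mL stayed between 29 and 31 when single libraries were left out (lower: 1 to 2). In the same refits 36 to 41 members fell between the doses of that particle and 0 rose, and 33 to 39 were higher and 0 lower with doping at 160 μg/mL. The other ranges were 1 to 3 higher and 12 to 25 lower for Ag2S NPs at 320 μg/mL, 2 to 4 and 16 to 21 for the Li-doped particle at 320 μg/mL, 0 to 1 and 8 to 16 for Ag2S NPs at 160 μg/mL, 5 to 7 and 1 to 7 for doping at 320 μg/mL, 1 to 2 and 0 to 3 for the dose of Ag2S NPs, and 0 to 2 and 27 to 34 for the interaction. Median ratio scaling gave 5 higher and 8 lower for Ag2S NPs at 320 μg/mL, 11 and 12 for the Li-doped particle at 320 μg/mL, 2 and 5 for Ag2S NPs at 160 μg/mL, 4 lower for doping at 320 μg/mL and 2 higher for the dose of Ag2S NPs; it also moved UTP4 to 0.0512 and MYC to 0.0149 for the Li-doped particle at 320 μg/mL. Equal summed FPKM gave 1 higher for each particle at 320 μg/mL, 2 lower for the Li-doped particle at 160 μg/mL, 5 higher for doping at 320 μg/mL, 0 lower for the dose of Ag2S NPs and 0 higher for the interaction. Weights per library gave 4 higher and 6 higher for the undoped and Li-doped particle at 320 μg/mL, 25 lower for Ag2S NPs at 160 μg/mL, 2 lower for the Li-doped particle at 160 μg/mL, 17 higher for doping at 320 μg/mL, and 2 higher and 4 lower for the dose of Ag2S NPs. Without a filter there were 0 higher for Ag2S NPs at 160 μg/mL, and 5 higher and 4 lower for doping at 320 μg/mL. With only the groups compared there were 5 higher and 3 lower for doping at 320 μg/mL and 0 lower for the dose of Ag2S NPs, and with a mean FPKM of at least 5 there were 2 higher and 2 lower for that dose. The cause of these moves was not tested, and some fits with weights per library did not converge fully. No paired analysis was possible because the 15 libraries carry 15 separate replicate numbers, none shared between groups. Depth is unknown, so what low values such as those of NOP14 allow cannot be stated.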
